A study of Mus musculus with 6 samples.

Results

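The genes described here are 36 mouse genes of glycolysis and pyruvate metabolism, picked by symbol from glucose uptake through the glycolytic enzymes to lactate, the entry of pyruvate into mitochondria and the store of glycogen. All 36 had a row among the 18124 genes of the deposited table, and all 36 passed the filter on low counts that left 14644 genes for testing. RNA was sequenced from muscle mesenchymal stem cells, stromal progenitors of skeletal muscle, that had been sorted from the quadriceps of 6 naïve male Col1-eGFP mice as cells positive for the green fluorescent protein of the Col1-eGFP transgene and for Sca-1, and were used at passage 4. In the senescent medium group the cells grew in medium conditioned by senescent macrophages, which were bone marrow-derived macrophages of wild-type mice given 300 µM hydrogen peroxide for 3 hours, given it again 3 days later and then cultured for 14 days. In the control medium group they grew in medium conditioned by control macrophages that were not senescent. Exposure lasted 72 hours, with fresh conditioned medium at 24 and 48 hours, and each medium was a pool of repeated collections of 48 hours. There were 3 libraries per medium. Whether the replicates were separate cultures or animals is not stated, and the p-values given here speak only of how far these libraries vary, which may be technical variation.

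In glycolysis a cell splits glucose into pyruvate and gains ATP and NADH. Pyruvate is then either reduced to lactate in the cytosol, which restores the oxidised NAD that glycolysis needs, or carried into mitochondria, where the pyruvate dehydrogenase complex turns it into acetyl-CoA. Many glycolytic genes are known targets of hypoxia-inducible factors, and proliferating stromal cells in culture commonly make lactate even with oxygen present.

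Library totals ran from 19420750 to 21659434 estimated counts in senescent medium and from 17228162 to 21225833 in control medium. All 10 muscle stromal markers were listed, with Ly6a, which encodes Sca-1, at 1235 CPM in senescent medium and 1206 CPM in control medium (CPM is the count per 1000000 counts of the scaled library size). Of 12 macrophage markers only Csf1r, Cd68, Mrc1 and Lyz2 had a row, and Ptprc, Adgre1 and Itgam were among the 8 without one. The macrophage markers summed to 15.0 to 20.1 CPM in senescent medium and 11.9 to 14.3 CPM in control medium, mostly from Lyz2. The listed ones did not move together. By log2 fold change, senescent over control medium, Lyz2 rose (0.80) and Csf1r fell (-0.53). Cd68 (0.53) did not pass the test used below, and Mrc1 was not tested. Myogenic and muscle fibre markers summed to 18.1 to 20.0 CPM in senescent medium and 10.2 to 11.9 CPM in control medium, with 4 of 10 listed and Pax7, Myf5, Myod1 and Myog without a row. These sums came mostly from Acta1 and Des. Ttn and Tnnt3 averaged 0.148 and 0.251 CPM in senescent medium and 0.364 and 0.348 CPM in control medium. For endothelial markers, 3 of 6 listed, the sums were 25.7 to 32.5 CPM in senescent medium and 23.5 to 26.0 CPM in control medium. Most of this was Tek, at 26.9 CPM in senescent medium and 23.8 CPM in control medium. Pecam1 averaged 0.148 CPM in senescent medium and 0.113 CPM in control medium. The stromal markers themselves summed to 18484 to 19006 CPM in senescent medium and 13950 to 14021 CPM in control medium, mostly from Col1a1, Col1a2 and Col3a1. Others of the list went both ways on the log2 scale. Thy1 (0.29), Cd34 (0.22) and Dcn (0.47) rose, while Pdgfra (-0.29), Pdgfrb (-0.30) and Dpt (-0.85) fell. The 15 mitochondrially encoded genes held 2.94% to 3.00% of the counts in senescent medium and 2.59% to 2.82% in control medium. The part of these shifts in the results below was not tested.

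Most of the pathway was higher in senescent medium. By the quasi-likelihood test of edgeR, with a threshold of 0.05 on the p adjusted over all genes tested, 22 of the 36 genes rose (61.1%) and 4 fell (11.1%), while 24.6% of all genes tested rose and 24.9% fell, 49.5% in either direction. At 1.5-fold or more, 11 of the 36 (30.6%) rose, against 6.69% of all genes, and only Pdk4 fell, against 7.05%. In 28 genes (77.8%) the libraries of the media did not overlap, 23 with senescent medium above and 5 with it below, against 55.8% of all genes (27.8% above and 28.0% below). The median log2 fold change of the 36, senescent over control medium, was 0.35, beside -0.00096 for all genes tested, and the values ran from -0.75 for Pdk4, a pyruvate dehydrogenase kinase, to 1.36 for Pgk1, phosphoglycerate kinase. Scaling by library totals alone gave 19 higher and 5 lower, and for all genes 2589 higher and 4813 lower in place of 3607 and 3644. In bulk RNA, a change in the number of cells that use a gene and a change in its RNA per cell cannot be told apart.

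The 17 enzyme genes from hexokinase to lactate dehydrogenase gave 13 rises, 1 fall and 3 that did not pass, with a median of 0.58. Among all genes tested, 24.6% rose and 24.9% fell. By their own rows alone, the 36 genes took up 0.966 ± 0.0157% of all counts in senescent medium and 0.716 ± 0.0176% in control medium (SD, n = 3 each). With the near-identical copies described below added, the shares were 1.42 ± 0.0122% in senescent medium and 0.992 ± 0.0237% in control medium. With 3 against 3 libraries the exact two-sided permutation test cannot go below p = 0.1, which is the value it gave.

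**Figure D1:**
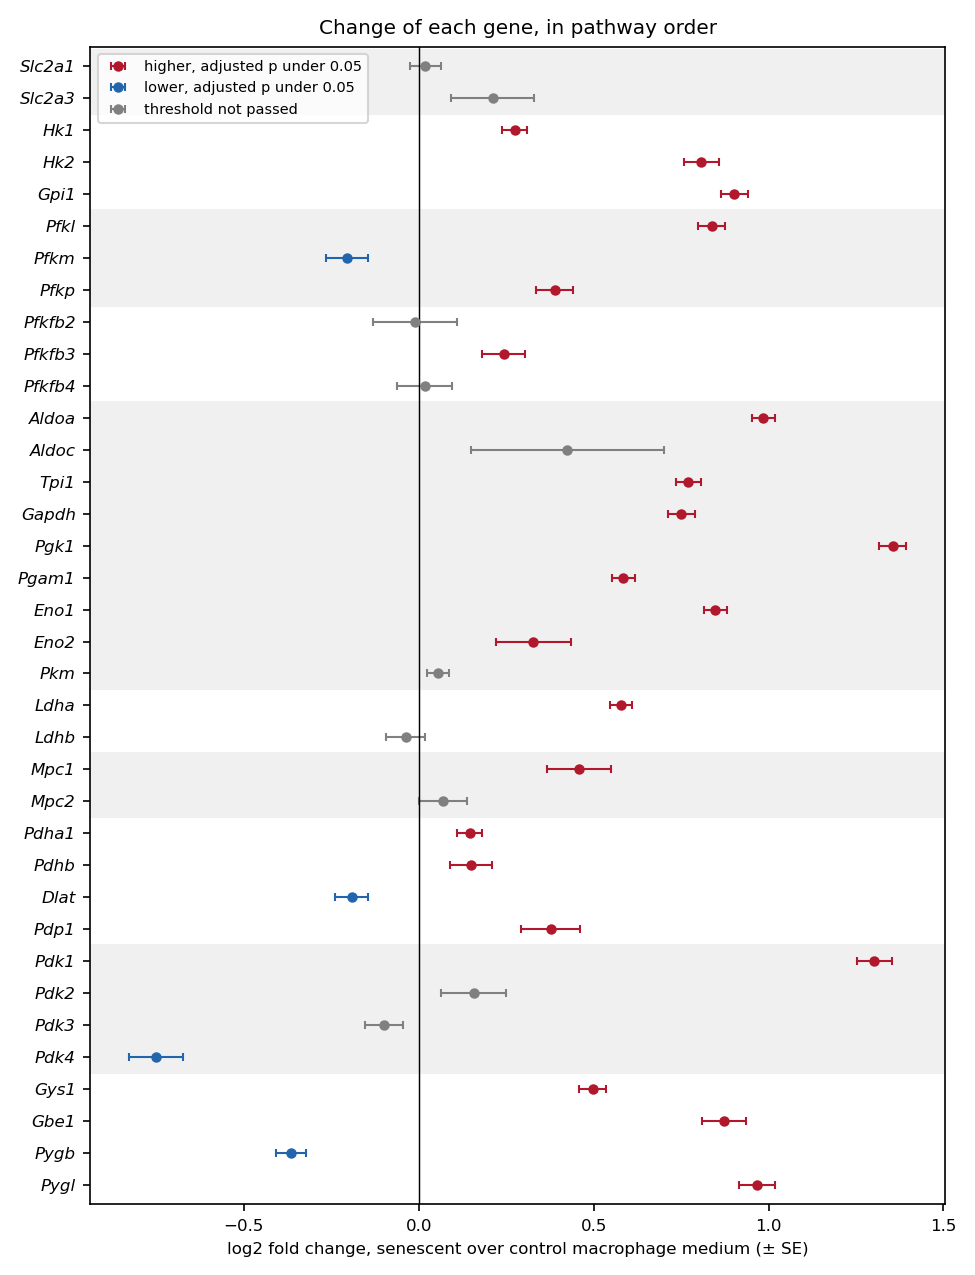
Log2 fold change of each of the 36 genes, senescent over control macrophage medium, in pathway order, with bars of ± SE; red points rose, blue points fell and grey points did not pass the adjusted p of 0.05, and shaded bands separate the steps. By own rows the longest shifts are Pgk1 at 1.36 and Pdk1 at 1.30 to the right and Pdk4 at -0.75 to the left.

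The promoters of 4 of these genes are printed because they stand at the ends of that range: the 3 largest changes among genes that averaged at least 100 CPM, all upward by own rows, and the largest fall. Each is the 250 bases before the transcription start, from the RefSeq promoter table for GRCm38.p6, an older build than the mm39 named for the deposited counts. The start sites lie at the downstream end of chrX:106186850-106187099 on the plus strand for Pgk1, chr7:126799179-126799428 on the minus strand for Aldoa, chr7:34230337-34230586 on the minus strand for Gpi1 and chr6:5496279-5496528 on the minus strand for Pdk4. Capitals mark ACGTG or GCGTG, the core letters known for hypoxia-inducible factor binding, on either strand, so that ACGTG on the other strand reads CACGT.
Pgk1: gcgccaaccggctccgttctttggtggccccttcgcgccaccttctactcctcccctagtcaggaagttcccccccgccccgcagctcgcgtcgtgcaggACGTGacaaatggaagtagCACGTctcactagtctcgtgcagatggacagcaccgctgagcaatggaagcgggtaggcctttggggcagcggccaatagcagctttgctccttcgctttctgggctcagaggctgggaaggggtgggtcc
Aldoa: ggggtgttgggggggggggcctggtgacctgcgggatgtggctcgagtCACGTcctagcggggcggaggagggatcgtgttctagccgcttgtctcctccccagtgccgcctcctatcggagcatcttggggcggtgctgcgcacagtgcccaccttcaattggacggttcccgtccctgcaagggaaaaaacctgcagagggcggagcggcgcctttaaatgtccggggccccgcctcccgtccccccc
Gpi1: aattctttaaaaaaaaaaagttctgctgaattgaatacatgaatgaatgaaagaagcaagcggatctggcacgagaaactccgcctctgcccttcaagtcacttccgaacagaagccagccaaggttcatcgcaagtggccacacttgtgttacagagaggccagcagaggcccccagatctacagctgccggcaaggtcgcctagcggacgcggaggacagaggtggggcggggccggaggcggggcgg
Pdk4: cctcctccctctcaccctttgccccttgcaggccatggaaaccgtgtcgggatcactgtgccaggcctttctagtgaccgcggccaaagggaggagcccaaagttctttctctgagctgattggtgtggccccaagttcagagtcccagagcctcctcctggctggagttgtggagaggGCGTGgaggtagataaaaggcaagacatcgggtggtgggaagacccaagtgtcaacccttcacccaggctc
Pgk1 held a match at -150 and at -131 from the start, Aldoa at -202 and Pdk4, the gene that fell, at -71, while the printed Gpi1 window held none. Aldoa has 3 windows in the table, of which 2 hold 1 match each, and 1 of these is shown.

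Over the windows from 250 bases before to 50 bases after the start, 34 of the 36 genes matched the table, with 51 windows, and Slc2a3 and Pdp1 did not. ACGTG stood in 18 of the 34 genes (52.9%), against 29.2% of the 10300 tested genes with a window and 21.8% of all 27025 genes of the table. Counted per window, the shares were 43.1%, 25.1% and 19.6%. GCGTG stood in 23 of the 34 (67.6%), against 56.0% of tested genes and 35.1% of all. The palindrome CACGTG, which contains ACGTG, stood in 5 of the 34 (14.7%), against 11.8% and 8.09%. By response, ACGTG stood in 10 of the 21 matched genes that rose (47.6%), in 2 of the 4 that fell and in 6 of the 9 that did not pass (66.7%). In the same order, GCGTG stood in 13 (61.9%), 3 and 7 (77.8%) of these genes. CACGTG stood in 2 (9.52%), 1 and 2 (22.2%). The windows' median GC content was 61.0%, beside 60.7% for the windows of tested genes and 52.7% for all windows.

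The order of expression depends on sequence copies. In the older annotation GENCODE M21, 10 of the 36 genes have near-identical copies elsewhere in the genome, defined as at least 95% identity over at least 300 bases of the transcript, and some of these are listed in the table with counts of their own. The counting method, for which the sources used here give no name, decides how such reads are assigned, and reads of a gene and of its copies may have been split between rows. Gapdh, the enzyme that oxidises glyceraldehyde 3-phosphate and a common reference gene in expression work, is the clearest case. Its own row held 262, 256 and 258 CPM in senescent medium, against 163, 146 and 152 CPM in control medium. The 46 listed copies of 77 annotated ones held 1937, 1868 and 1755 CPM in senescent medium, against 1107, 1089 and 1130 CPM in control medium, 97.3% of it in the single row Gm7336. The copies thus made up 87.2% to 88.2% of the summed counts across the 6 libraries. Gapdh rose by its own row (log2 fold change 0.75 ± 0.039 SE, edgeR adjusted p = 1.86e-16) and with the copies added (0.74 ± 0.034, adjusted p = 1.49e-17).

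The copies of Pgk1, chiefly Pgk1-rs7, held 66.2% to 69.0% of the sum in senescent medium and 69.3% to 69.9% in control medium. Those of Eno1, chiefly Gm4735, held 57.7% to 58.3% in senescent medium and 57.5% to 58.3% in control medium. The copy of Pgam1, Pgam1-ps2, held 34.6% to 35.3% in senescent medium and 34.6% to 35.9% in control medium. For Gpi1 the copy Gm1840 held 25.0% to 25.6% in senescent medium and 26.4% to 26.7% in control medium. The copies' share overlapped between the media for Gapdh, Eno1 and Pgam1, while for Pgk1 and Gpi1 it was slightly lower in every senescent medium library than in every control medium library. With copies added, Pgk1 came to 1182 ± 5.58 CPM in senescent medium and 485 ± 15.2 CPM in control medium (SD, n = 3 each), a log2 fold change of 1.29 ± 0.033 where its own row gave 1.36 ± 0.039. Eno1 came to 2470 ± 27.7 CPM in senescent medium and 1368 ± 15.4 CPM in control medium, with 0.85 ± 0.031. The copies of Pdhb, Ldhb and Pkm held 14.4% to 19.9%, 6.92% to 10.0% and 5.08% to 6.00% of their sums over the 6 libraries, and those of Ldha and Tpi1 less than 1%. Summing the copies, an alternative chosen after seeing the data, left the counts at 22 higher and 4 lower.

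**Figure D2:**
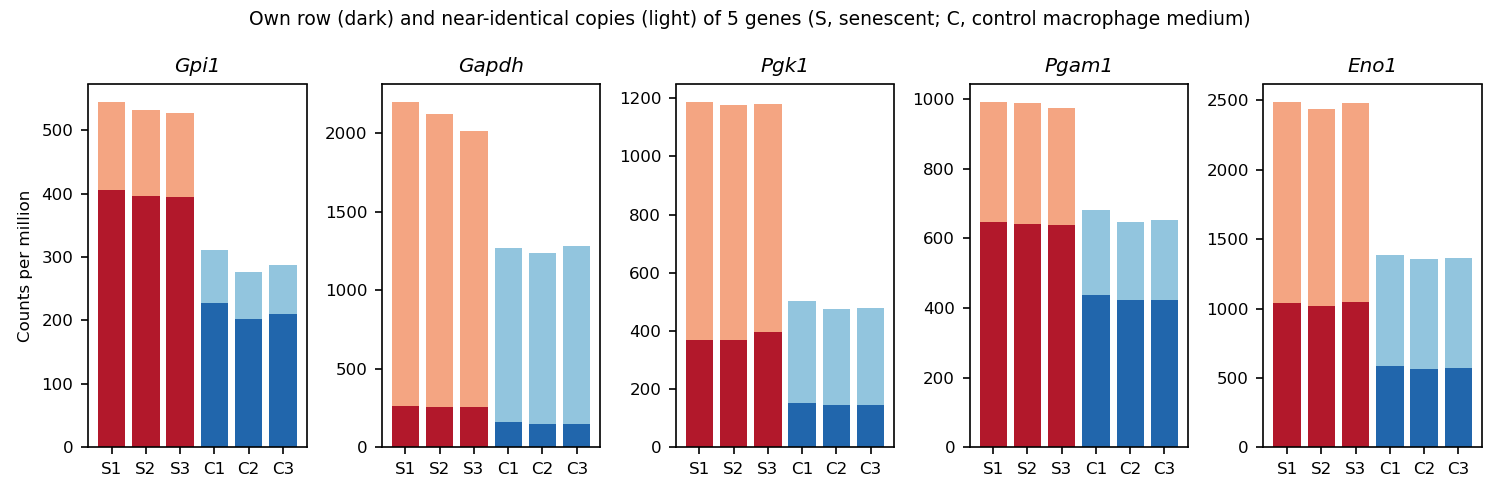
CPM on the gene's own row (dark) and on the rows of its near-identical copies (light, stacked) for Gpi1, Gapdh, Pgk1, Pgam1 and Eno1, with the senescent medium libraries S1 to S3 (red) left of the control medium libraries C1 to C3 (blue). Copies hold 87.2% to 88.2% of the Gapdh sum, and in all 5 genes every senescent medium bar is taller than every control medium bar.

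Per kilobase of exon, with own rows only, Pkm had the highest level of the 36 genes, 821 ± 8.85 CPM per kb in senescent medium and 791 ± 15.3 CPM per kb in control medium (SD, n = 3 each). Aldoa followed with 775 ± 9.18 CPM per kb in senescent medium and 391 ± 9.39 CPM per kb in control medium, and Ldha with 711 ± 4.44 CPM per kb in senescent medium and 476 ± 12.6 CPM per kb in control medium. Pkm and Aldoa thus stood closer to each other in senescent medium, and in control medium Ldha ranked above Aldoa. With copies added, Gapdh had the highest mean, at 1413 CPM per kb in senescent medium and 844 CPM per kb in control medium. Pkm with its copy came to 867 CPM per kb in senescent medium and 836 CPM per kb in control medium. The lead of Gapdh over Pkm in control medium was thus slight and was not tested. Eno1 with copies reached 970.0 CPM per kb in senescent medium and 537 CPM per kb in control medium. The lowest level was that of Aldoc, at 0.703 ± 0.105 CPM per kb in senescent medium and 0.531 ± 0.184 CPM per kb in control medium.

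**Figure D3:**
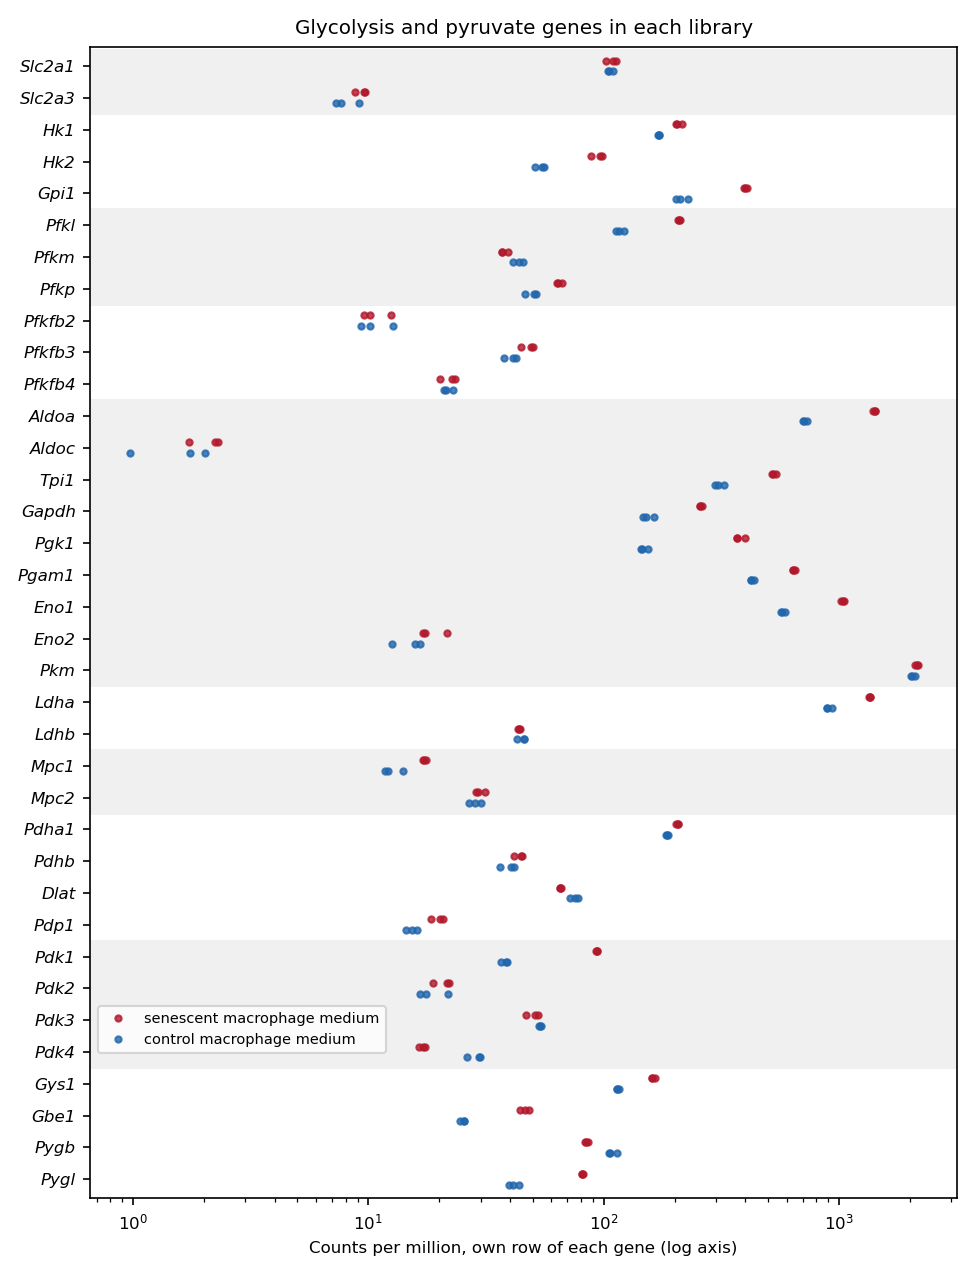
CPM of each of the 36 genes in every library on a log axis, own rows only, with senescent medium (red) above control medium (blue) in each row and shaded bands separating the steps. Aldoc, at 0.969 to 2.30 CPM, and Pkm, at 2019.9 to 2157 CPM, mark the range. The red and blue points are fully apart in 28 genes (77.8%, against 55.8% of all genes tested).

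In what follows, values in parentheses are log2 fold changes, senescent over control medium, ± SE. Neither glucose transporter gene passed the test. Slc2a1, the basal glucose transporter GLUT1, had 102, 109 and 112 CPM in senescent medium, against 104, 109 and 106 CPM in control medium. The libraries overlapped, and the log2 fold change of 0.02 ± 0.044 had a 95% interval of -0.066 to 0.105 (edgeR adjusted p = 0.746), which turned negative with library totals (-0.061). Slc2a3, the high-affinity transporter GLUT3, had 9.55, 9.69 and 8.75 CPM in senescent medium, against 7.66, 9.09 and 7.31 CPM in control medium (0.21 ± 0.12, adjusted p = 0.144).

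All 3 genes of the first enzyme steps rose. Hexokinases trap glucose in the cell by phosphorylation. Hk1, the widely expressed form, had 215, 203 and 204 CPM in senescent medium, against 171, 171 and 172 CPM in control medium (0.27 ± 0.037, edgeR adjusted p = 2.43e-07). Hk2, the form typical of muscle and fat, had 88.4, 98.3 and 96.8 CPM in senescent medium, against 51.2, 55.9 and 54.6 CPM in control medium (0.81 ± 0.051, adjusted p = 1.79e-14). Hk2 stayed the less abundant of the pair, with 28.3 ± 1.81% of their summed CPM per kb in senescent medium and 21.4 ± 0.717% in control medium. Gpi1, which isomerises glucose 6-phosphate to fructose 6-phosphate, had 405, 397 and 395 CPM in senescent medium, against 228, 202 and 211 CPM in control medium (0.90 ± 0.038, adjusted p = 2.08e-18). The media lay far apart for Gpi1 and Hk2 and less so for Hk1.

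The subunits of phosphofructokinase, the committing enzyme of glycolysis, split. Pfkl, the liver-type subunit, had 209, 211 and 206 CPM in senescent medium, against 122, 113 and 116 CPM in control medium (0.84 ± 0.039, edgeR adjusted p = 1.22e-17). Pfkp, the platelet-type subunit, also rose, with 63.2, 66.4 and 64.0 CPM in senescent medium, against 51.6, 46.2 and 50.3 CPM in control medium (0.39 ± 0.053, adjusted p = 3.17e-07). Pfkm, the muscle-type subunit, fell, with 39.4, 36.8 and 36.8 CPM in senescent medium, against 43.7, 45.4 and 41.1 CPM in control medium (-0.21 ± 0.059, adjusted p = 0.0046). The media did not overlap in any of these 3 genes. Exons of Pfkp are overlapped over 17.4% of their length by a gene on the opposite strand, and those of Gpi1 over 12.3%. Pfkl made up 67.0 ± 0.182% of the subunits' summed CPM per kb in senescent medium and 54.7 ± 0.715% in control medium, while Pfkm made up 15.0 ± 0.574% in senescent medium and 25.3 ± 1.49% in control medium.

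Of the enzymes that make and remove fructose 2,6-bisphosphate, an activator of phosphofructokinase, Pfkfb3 alone passed the test. Pfkfb3, whose product mostly makes the activator, had 44.5, 50.1 and 49.3 CPM in senescent medium, against 37.8, 41.2 and 42.5 CPM in control medium (0.24 ± 0.060, edgeR adjusted p = 0.00126). Pfkfb2 had log2 fold change -0.011 ± 0.12 and Pfkfb4 had 0.016 ± 0.078 (adjusted p = 0.951 and 0.882), with overlapping libraries, and the sign of each turned under some of the alternatives. Exons of Pfkfb2 are overlapped over 24.7% of their length by another gene on the same strand.

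From aldolase to pyruvate kinase, 7 of 9 genes rose, against 24.6% of all genes tested, with a median of 0.75. Aldoa, the aldolase that splits fructose 1,6-bisphosphate, had 1428, 1395 and 1415 CPM in senescent medium, against 733, 700.5 and 707 CPM in control medium (0.99 ± 0.032, edgeR adjusted p = 2.85e-21). Pgk1, which makes the first ATP of the pathway, had 368, 368 and 398 CPM on its own row in senescent medium, against 154, 146 and 144 CPM in control medium (1.36 ± 0.039, adjusted p = 9.48e-23). That is 2.56-fold, the largest change of the 36 genes by own rows, while with copies added Pgk1 (1.29) stood just below Pdk1 (1.30). Tpi1, which interconverts the triose phosphates, had 518, 525 and 539 CPM in senescent medium, against 325, 297 and 306 CPM in control medium (0.77 ± 0.036, adjusted p = 1.22e-17). Pgam1, phosphoglycerate mutase, had 647, 639.7 and 637 CPM in senescent medium, against 436, 423 and 424 CPM in control medium (0.58 ± 0.032, adjusted p = 1.03e-15). Eno1, the main enolase, had 1044, 1018 and 1048 CPM in senescent medium, against 589, 566 and 574 CPM in control medium (0.85 ± 0.033, adjusted p = 1.22e-19). In these 5 genes, as in Gapdh, every senescent medium library lay above every control medium library.

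Eno2, the neuronal-type enolase, stood at 6.68 CPM per kb in senescent medium and 5.36 CPM per kb in control medium, far below Eno1. It had 17.0, 17.5 and 21.5 CPM in senescent medium, against 16.6, 12.5 and 15.9 CPM in control medium (0.33 ± 0.11, edgeR adjusted p = 0.0147). Its rise leaned on single libraries, since the adjusted p was 0.119 without senescent medium replicate 3, 0.124 without control medium replicate 2 and 0.0844 with library totals, within a range of 0.00239 to 0.124 over its alternatives. Aldoc had 2.30, 2.24 and 1.73 CPM in senescent medium, against 2.03, 0.969 and 1.74 CPM in control medium (0.42 ± 0.28, adjusted p = 0.21). Pkm, which makes pyruvate and the last ATP, was the most abundant gene of this stretch by its own row and did not pass. It had 2157, 2111 and 2135 CPM in senescent medium, against 2098, 2019.9 and 2047 CPM in control medium, so the libraries just failed to overlap. The log2 fold change of 0.055 ± 0.032 had a 95% interval of -0.0072 to 0.117 (adjusted p = 0.155), turned to -0.027 with library totals, and passed with upper-quartile scaling (adjusted p = 0.0416) and without control medium replicate 1 (0.0452), within a range of 0.0416 to 0.505. The counts are per gene, so the muscle-type and M2-type splice forms of Pkm could not be separated, and 12.9% of its exon length is shared with another gene on the same strand.

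At the lactate branch, Ldha, the subunit that favours the reduction of pyruvate to lactate, had 1355, 1338 and 1349 CPM in senescent medium, against 930.0, 887 and 891 CPM in control medium (0.58 ± 0.032, edgeR adjusted p = 1.11e-15). Ldhb, the heart-type subunit, had 43.5, 43.9 and 43.3 CPM in senescent medium, against 45.9, 42.7 and 45.7 CPM in control medium (-0.037 ± 0.056, adjusted p = 0.607). Ldha made up 95.5 ± 0.0528% of their summed CPM per kb in senescent medium and 93.3 ± 0.200% in control medium.

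Mpc1 and Mpc2 encode the partner subunits of the mitochondrial pyruvate carrier, and Mpc1 alone rose. Mpc1 had 17.1, 17.6 and 17.3 CPM in senescent medium, against 14.0, 11.7 and 12.1 CPM in control medium (0.46 ± 0.091, edgeR adjusted p = 9.96e-05). Mpc2 had 28.6, 29.3 and 31.4 CPM in senescent medium, against 30.1, 26.8 and 28.3 CPM in control medium (0.070 ± 0.068, adjusted p = 0.417, and -0.010 with library totals). Mpc1 shares 23.4% of its exon length with a gene on the opposite strand, and the strand setting of the counts is not given in the sources used here.

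Within the pyruvate dehydrogenase complex, Pdha1, the catalytic E1 alpha subunit, had 207, 202 and 207 CPM in senescent medium, against 183, 188 and 185 CPM in control medium (0.15 ± 0.036, edgeR adjusted p = 0.00103). Pdhb, the E1 beta subunit, averaged 43.7 ± 1.76 CPM in senescent medium and 39.4 ± 2.82 CPM in control medium (0.15 ± 0.061, adjusted p = 0.0421). Dlat, the E2 subunit, fell, with 66.1, 65.5 and 65.1 CPM in senescent medium, against 75.6, 71.9 and 77.6 CPM in control medium (-0.19 ± 0.047, adjusted p = 0.00113). Pdp1, the phosphatase that reactivates the complex, rose, with 20.1, 18.5 and 20.8 CPM in senescent medium, against 14.4, 15.3 and 16.0 CPM in control medium (0.38 ± 0.085, adjusted p = 4.19e-04). The calls for the E1 subunits were the less firm ones. With library totals the adjusted p was 0.133 for Pdha1 and 0.364 for Pdhb, and Pdhb also missed the threshold by DESeq2 (0.112), by limma-voom (0.0521) and without control medium replicate 3 (0.270), senescent medium replicate 1 (0.110) or senescent medium replicate 2 (0.140). Over the alternatives the adjusted p ran from 0.000259 to 0.133 for Pdha1 and from 0.0224 to 0.364 for Pdhb. Pdha1 shares 21.2% of its exon length with a gene on the opposite strand.

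Of the 4 kinases that switch the complex off by phosphorylation, Pdk1 rose and Pdk4 fell. Pdk1, which is known to be induced by hypoxia-inducible factor, had 94.1, 94.0 and 92.9 CPM in senescent medium, against 36.7, 38.5 and 38.6 CPM in control medium (1.30 ± 0.049, edgeR adjusted p = 7.34e-20). Pdk4, the form known to rise on fasting, had 16.5, 17.4 and 17.0 CPM in senescent medium, against 26.3, 29.5 and 29.9 CPM in control medium (-0.75 ± 0.076, adjusted p = 1.09e-09). Pdk1 was thus 2.47-fold higher and Pdk4 1.68-fold lower, each with its libraries well apart. Pdk2 had 21.5, 21.9 and 18.8 CPM in senescent medium, against 21.9, 16.6 and 17.5 CPM in control medium (0.16 ± 0.094, adjusted p = 0.176), and it passed without control medium replicate 1 (0.0109, in a range of 0.0109 to 0.598). Pdk3 had 51.1, 52.4 and 46.7 CPM in senescent medium, against 53.2, 53.4 and 54.3 CPM in control medium (-0.10 ± 0.054, adjusted p = 0.130), and it passed as lower with library totals (0.00571, in a range of 0.00571 to 0.518). Per kb, Pdk3 was the leading kinase in both media, with 42.4 ± 0.774% of the kinases' sum in senescent medium and 51.6 ± 0.674% in control medium. By CPM, not divided by exon length, Pdk1 led in senescent medium (93.7 against 50.1 CPM for Pdk3). In control medium Pdk3 led by CPM too (53.6 against 37.9 CPM for Pdk1). The shares that follow are per kb. Pdk1 made up 32.4 ± 1.14% in senescent medium and 14.9 ± 0.512% in control medium, and Pdk4 8.73 ± 0.416% in senescent medium and 16.7 ± 1.25% in control medium.

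Of the glycogen genes in this set, those of synthesis, Gys1 and Gbe1, rose, and those of breakdown, Pygl and Pygb, split. Gys1, the muscle-type glycogen synthase, had 166, 159.6 and 160.3 CPM in senescent medium, against 116, 114 and 114 CPM in control medium (0.50 ± 0.038, edgeR adjusted p = 2.68e-12). Gbe1, the branching enzyme, had 46.4, 48.0 and 44.0 CPM in senescent medium, against 25.6, 24.5 and 25.6 CPM in control medium (0.87 ± 0.062, adjusted p = 3.65e-13). Both rose with no overlap between the media. Pygl, the liver-type glycogen phosphorylase, had 81.1, 81.9 and 80.7 CPM in senescent medium, against 41.0, 43.7 and 39.8 CPM in control medium (0.97 ± 0.051, adjusted p = 2.61e-16). Pygb, the brain-type phosphorylase, fell, with 83.0, 85.8 and 83.8 CPM in senescent medium, against 113.7, 105 and 107 CPM in control medium (-0.36 ± 0.044, adjusted p = 2.82e-08). Pygl held 53.0 ± 0.306% of the pair's CPM per kb in senescent medium and 30.9 ± 1.58% in control medium. Per kb the order of the phosphorylases was thus turned round. By CPM, not divided by exon length, Pygb stayed slightly above Pygl in senescent medium, at 84.2 ± 1.44 CPM against 81.2 ± 0.605 CPM.

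**Figure D4:**
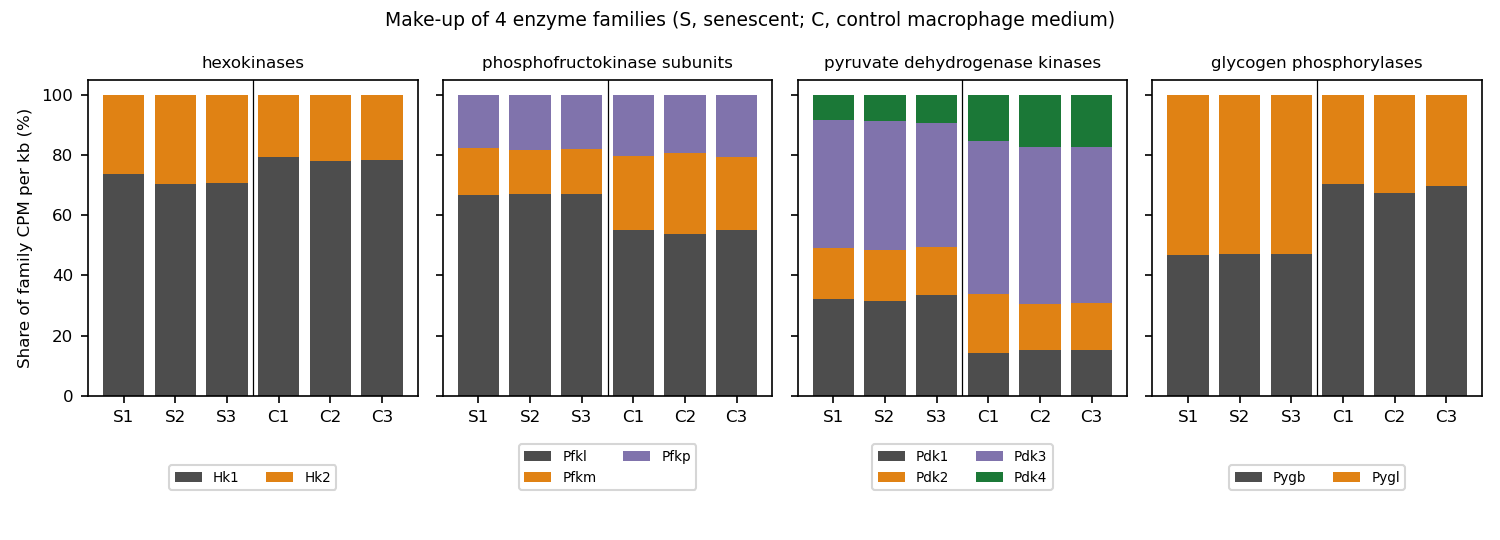
Share of each gene in the summed CPM per kb of its family (percent) in every library, for hexokinases, phosphofructokinase subunits, pyruvate dehydrogenase kinases and glycogen phosphorylases, with the senescent medium libraries S1 to S3 left of the control medium libraries C1 to C3. In senescent medium Pygl averages 53.0%, Pdk1 32.4% and Pfkl 67.0%, and in control medium Pygl averages 30.9%, Pdk1 14.9% and Pfkl 54.7%.

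Ratios within a family do not depend on how libraries are scaled. In 14 pairs of related genes, the log2 ratio of counts did not overlap between the media in 10. Among all genes tested, taken singly, 55.8% did not overlap, and the share among other pairs of genes was not computed. The widest gaps, senescent minus control medium, were 1.33 ± 0.062 (SE) for Pygl over Pygb, 1.14 ± 0.16 for Pdk1 over Pdk2 and -1.04 ± 0.068 for Pfkm over Pfkl. Next came -0.91 ± 0.19 for Pdk4 over Pdk2, -0.62 ± 0.028 for Ldhb over Ldha and 0.54 ± 0.083 for Hk2 over Hk1. Smaller gaps without overlap were -0.53 ± 0.15 for Eno2 over Eno1, -0.45 ± 0.029 for Pfkp over Pfkl, 0.39 ± 0.054 for Mpc1 over Mpc2 and -0.23 ± 0.092 for Pfkfb4 over Pfkfb3, which came to -0.14 without control medium replicate 1. Slc2a3 over Slc2a1 (0.20), Pfkfb2 over Pfkfb3 (-0.24), Pdk3 over Pdk2 (-0.26) and Aldoc over Aldoa (-0.53) overlapped. Without control medium replicate 1, Aldoc over Aldoa came to -0.34, and without control medium replicate 2 to -0.84. Pfkfb2 over Pfkfb3 came to -0.13 without control medium replicate 2 and to -0.37 without control medium replicate 3. The exact two-sided permutation test gave p = 0.1 for each of the 10, the smallest value it can reach here, or 0.14 adjusted over the 14 pairs, so none could pass the threshold.

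Neighbouring pathways were read by the same fit, in which 24.6% of all genes tested rose and 24.9% fell. Of 23 other glycolysis and glycogen genes tested, 9 rose and 4 fell (median log2 fold change 0.17). Another 8 of the list's 35 genes had no row, among them Hk3, Fbp1, Fbp2 and Pklr. Gyg and Pgm1 rose (edgeR adjusted p = 8.81e-14 and 1.02e-10). Gyg, the glycogenin that primes glycogen, averaged 61.5 ± 3.39 CPM in senescent medium and 34.3 ± 0.533 CPM in control medium (SD, n = 3 each), a log2 fold change of 0.84 ± 0.056. Pgm1, phosphoglucomutase, averaged 150.0 ± 3.82 CPM in senescent medium and 111 ± 3.25 CPM in control medium, with 0.44 ± 0.040.

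Among 18 other pyruvate and lactate genes tested, 7 rose and 7 fell, with a median of -0.063. Slc16a3, the lactate exporter MCT4, had 114, 117 and 128 CPM in senescent medium, against 50.7, 47.5 and 49.7 CPM in control medium (1.28 ± 0.049, edgeR adjusted p = 1.35e-19). Its chaperone Bsg rose too, at 862 ± 12.2 CPM in senescent medium and 596 ± 26.1 CPM in control medium (0.53 ± 0.034), while Pcx, pyruvate carboxylase, fell, at 29.4 ± 1.87 CPM in senescent medium and 49.0 ± 1.98 CPM in control medium (-0.74 ± 0.062).

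Of 16 tricarboxylic acid cycle genes, 3 rose and 7 fell, with a median of -0.059 and no change of 1.5-fold. The smallest adjusted p values belonged to 3 genes that fell. Sdha, a succinate dehydrogenase subunit, averaged 152 ± 2.18 CPM in senescent medium and 186 ± 5.19 CPM in control medium (-0.29 ± 0.037, edgeR adjusted p = 1.18e-07). Ogdh, of the oxoglutarate dehydrogenase complex, averaged 154 ± 3.63 CPM in senescent medium and 185 ± 4.19 CPM in control medium (-0.27 ± 0.037). Sucla2, a succinyl-CoA ligase subunit, averaged 62.0 ± 2.90 CPM in senescent medium and 76.6 ± 2.81 CPM in control medium (-0.31 ± 0.049).

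Of 7 pentose phosphate genes, 5 rose and 0 fell, with a median of 0.24. Taldo1, transaldolase, averaged 108.8 ± 3.18 CPM in senescent medium and 81.0 ± 2.58 CPM in control medium (0.43 ± 0.044, edgeR adjusted p = 1.30e-09). Tkt, transketolase, averaged 274 ± 0.186 CPM in senescent medium and 217 ± 4.78 CPM in control medium (0.33 ± 0.034). Pgd, 6-phosphogluconate dehydrogenase, averaged 426 ± 10.0 CPM in senescent medium and 356 ± 9.14 CPM in control medium (0.26 ± 0.034).

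Of 9 genes tested for subunits and regulators of the hypoxia-inducible factor, 3 rose and 2 fell, with a median of 0.034. Of all genes tested, 24.6% rose and 24.9% fell. Egln1 and Egln3 encode prolyl hydroxylases that mark the factor for breakdown, and both are themselves known to be induced by it. Egln1 had 126, 122 and 124 CPM in senescent medium, against 64.6, 72.5 and 69.97 CPM in control medium (0.84 ± 0.045, edgeR adjusted p = 4.90e-16). Egln3 had 8.83, 8.63 and 8.94 CPM in senescent medium, against 3.21, 3.32 and 2.42 CPM in control medium (1.55 ± 0.15, adjusted p = 3.63e-10). Hif1a, the factor's regulated subunit, fell at the RNA level, with 497, 512 and 502 CPM in senescent medium, against 619, 647 and 657 CPM in control medium (-0.35 ± 0.033, adjusted p = 3.09e-10). Protein and oxygen levels were not analysed here.

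**Figure D5:**
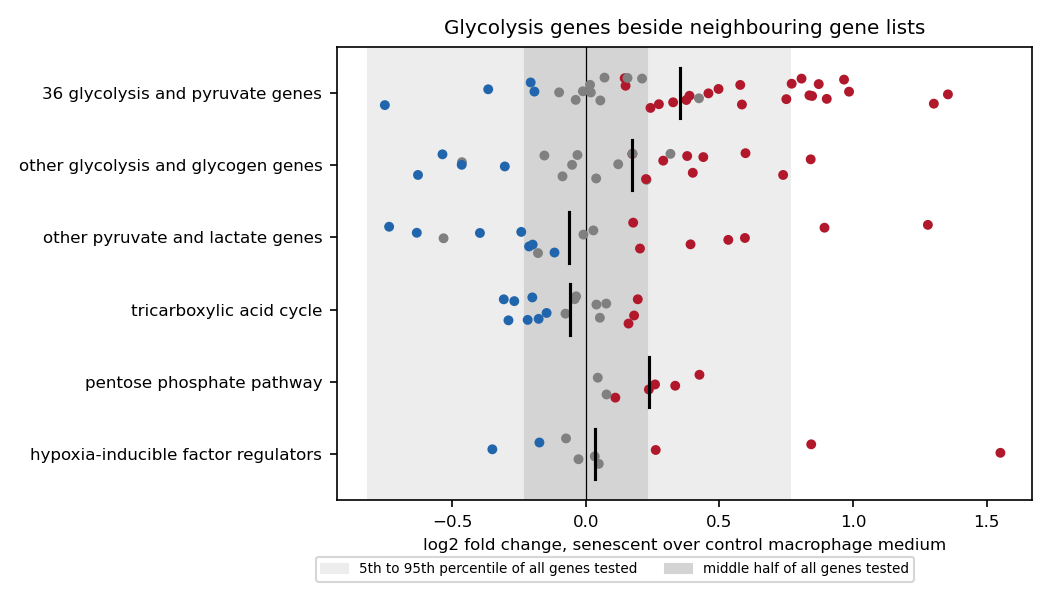
Log2 fold change, senescent over control macrophage medium, of the 36 genes and of 5 neighbouring lists, each point a gene (red rose, blue fell, grey did not pass), with the list's median as a black bar and the spread of all genes tested as grey bands. The median of the 36 genes is 0.35, beside 0.24 for the pentose phosphate pathway and -0.059 for the tricarboxylic acid cycle.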

How the data were processed

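The values deposited by the authors are raw estimated counts, with 1 row per Ensembl gene and 1 column for each of 6 libraries. Of the values in a library, 70.3% to 72.8% were whole to within 0.01. The submitters' processing notes name STAR, DESeq2 and mm39 without saying what each was used for. The counting tool, the annotation and the strand setting were not given in the sources used here. About 600 ng of RNA per sample was read as 150 bp pairs, per the labels' protocols.

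Symbols came from GENCODE M21 (GRCm38) by Ensembl ID, for 18092 of 18124 IDs (99.8%), as did exon lengths and copies (BLAST 2.17.0). Counts were rounded and tested with the robust quasi-likelihood test of edgeR 4.0.16 in R 4.3.3 (TMM factors, edgeR's expression filter, medium as the only term, two-sided), with Benjamini-Hochberg adjustment over 14644 genes. Each SE was obtained from the fold change (log2, absolute) over the square root of F, and intervals are 1.96 SE either side. CPM uses TMM-scaled library sizes. Ratios added 0.5 counts to each gene. The procedure was tested on simulated data with 50 genes changed at each size. It recovered 46% of those changed 1.2-fold, 76% at 1.5-fold, 90% at 2-fold and 88% at 4-fold. Far fewer genes were changed in the simulation than the 49.5% called in the data. The adjustment depends on that share, so these rates need not hold for the data. Alternatives were DESeq2 1.42.0, limma-voom 3.58.1, other scalings and filters, leaving out the most abundant feature, a threshold of 0.01, a replicate block, leaving out each library, and, chosen after seeing the data, summed copies.

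All 36 genes are named, and of each neighbouring list the 3 with the smallest adjusted p, except 1 gene that is not reported here. Promoters were printed for the 3 largest called changes at 100 CPM or more and the largest change the other way. The genes and lists were chosen with earlier results of these data known. The largest share of 1 feature was 2.78% to 5.29% of a library.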

Additional observations from a re-analysis of the deposited data

How the results depend on the processing

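Counts of rises and falls stayed within 1.5 times under every alternative run: 21 and 4 by DESeq2 and by limma-voom, 19 and 5 with library totals, 23 and 4 with upper-quartile factors, 20 and 4 at an adjusted p of 0.01, and 21 to 24 and 4 when each library was left out in turn. The median log2 fold change of the 36 genes, 0.35, was 0.27 with library totals and 0.29 to 0.39 when leaving out each library. Replicate numbers did not pair the libraries: same-numbered libraries deviated with correlations of 0.0187, 0.0019 and 0.0262. With the number as a block, 22 rose and 4 fell, and over all genes 3704 and 3698. The 14 ratio gaps kept their sign in each alternative run, and pairing the libraries by number cannot give a p below 0.25.

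The sign turned in 14 values, none of which passed the threshold, and the cause was not tested. With library totals, Slc2a1 gave -0.061, Pfkfb4 -0.064, Pkm -0.027 and Mpc2 -0.010. Pfkfb2 gave 0.0034 with the replicate block and 0.0090 with upper-quartile factors. Leaving out 1 library gave Slc2a1 from -0.011 to 0.059, Pfkfb2 from -0.13 to 0.14 and Pfkfb4 from -0.024 to 0.078. Of the gene and ratio values, 12 lost the threshold (Eno2, Pdha1 and Pdhb) and 4 gained it (Pkm, Pdk2 and Pdk3), and no gene that fell or rose by 1.5-fold was among them. Depth limits Aldoc most, at 21 to 48 counts a library.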
